A study of Mus musculus with 6 samples.

Results

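The genes described here are the secreted and membrane parts of the Wnt pathway, together with the intracellular negative regulators Axin1, Axin2 and Nkd1. They were taken from the count table by symbol, as all rows named for a Wnt, Frizzled (Fzd), Sfrp, Dkk or R-spondin (Rspo) gene, the receptors Lgr4, Lgr5 and Lgr6, and Lrp5, Lrp6, Rnf43, Znrf3, Wif1, Porcn, Wls, Nkd1, Axin1 and Axin2. This gave 54 of the 24063 genes in the table, by a rule that used no measured value. RNA was measured by RNA-seq in liver tumors of male C57BL/6 mice, 3 WT and 3 Nr2e3-/-, the latter knockout mice for the orphan nuclear receptor Nr2e3. How the knockout allele was made is not given in the sources used here. All mice, the controls included, carried tumors induced with the carcinogen diethylnitrosamine (DEN), injected at 25 mg/kg around day 15 of age, and the study describes tumors at 24 weeks. The comparison asks whether loss of Nr2e3 accompanied a different level of the genes that send, receive and restrain the Wnt signal. Each group held 3 libraries that the labels number separately, with no statement of how many tumors entered each, so the p-values measure the spread between these libraries.

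Wnt ligands are lipid-modified by the acyltransferase Porcn, carried to the cell surface by Wls and received by a Frizzled receptor with the co-receptor Lrp5 or Lrp6. When the canonical pathway is active, β-catenin escapes the destruction complex scaffolded by Axin1 and Axin2 and acts with TCF/LEF factors on target genes. The ubiquitin ligases Rnf43 and Znrf3 remove Frizzleds from the membrane, and R-spondins bound to Lgr4, Lgr5 or Lgr6 hold these ligases back. In the liver, Wnt2, Wnt9b and Rspo3 are known as products of endothelial cells around the central vein, and the neighbouring hepatocytes carry the strongest β-catenin activity.

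The libraries held 15376261 to 28690279 counts. A count of 0 therefore allowed up to 0.105 to 0.195 counts per 1e6 counts (CPM), for counting error only. This limit was taken before normalization, whereas the CPM given below are normalized. The hepatocyte marker Alb took 8.02% to 13.4% of all counts, and all 5 hepatocyte markers passed the filter on low counts, whereas Cpa1, Pnlip and Cel, which mark acinar pancreas, had 0 counts in all libraries and the other acinar markers, Prss2 and Amy2b, had at most 3 in any. Nr2e3 itself had 0 counts in all 6 libraries, so the genotype could not be checked from the table. Nr2e3-/- replicate 1 had the lowest depth and a median Spearman correlation to its own group of 0.967 across genes, against 0.971 and 0.980 for replicates 2 and 3 and 0.989 to 0.990 for the WT libraries. Without this library edgeR called 3022 genes after adjustment, against 13 with all 6 and 0 to 18 without any other, so the results that rest on it are given with and without it.

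Of the 54 members, 28 passed the filter on low counts and were tested, and 26 did not. The tested members were 7 of 19 Wnt ligands, both maturation genes, 7 of 10 Frizzleds, both co-receptors, 1 of 4 R-spondins, 2 of 3 R-spondin receptors, both ubiquitin ligases, 2 of 9 secreted inhibitors and all 3 intracellular regulators. Wnt3a, Wnt8a and Rspo4 had no count in any library. Another 15 members never exceeded 3 counts in a library, among them the canonical ligands Wnt1, Wnt3, Wnt7a, Wnt10a and Wnt10b, the receptors Fzd9 and Lgr6 and the inhibitors Dkk1, Dkk2, Sfrp2 and Sfrp4, with Wnt6, Wnt8b, Wnt11 and Rspo2. The remaining 8 (Wnt7b, Wnt16, Fzd2, Fzd10, Rspo1, Dkk4, Sfrp5 and Wif1) had up to 20 counts in a library and still failed the filter. Of the 26, Dkk4, Wnt7b and Fzd2 had counts in all 6 libraries, at a low level. For the 3 genes with no count, the depth did not allow absence to be told from a low level.

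Across the tested members, levels leaned lower in Nr2e3-/- tumors, with 22 log2 fold changes below 0 and 6 above. Of all tested genes, 49.2% had a log2 fold change below 0. The median log2 fold change of Nr2e3-/- over WT was -0.35, beside 0.01 over all 13572 genes tested. By edgeR's quasi-likelihood test, 6 members had an unadjusted p under 0.05, all of them lower in Nr2e3-/- tumors: Porcn, Wls, Fzd7, Fzd4, Fzd1 and Lgr5. That is 21.4% of the tested members called lower, beside 9.72% of all tested genes called lower and 21.5% called in either direction. After Benjamini-Hochberg adjustment over all genes, edgeR called 0 members, with a smallest adjusted p of 0.161, and 13 genes of the whole table (0.0958%). DESeq2 also called 0 members after adjustment, beside 7.93% of the genes it adjusted, and gave 9 of the 51 members it tested an unadjusted p under 0.05 (17.6%, beside 16.3% of all genes it tested). In 5 members (Wls, Porcn, Fzd7, Fzd1 and Lgr5; 17.9%) every Nr2e3-/- library lay below every WT library, as did 12.9% of all tested genes. Wnt9b was the only tested member in which all Nr2e3-/- libraries lay above all WT libraries, an arrangement seen in 13.9% of all tested genes.

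**Figure D1:**
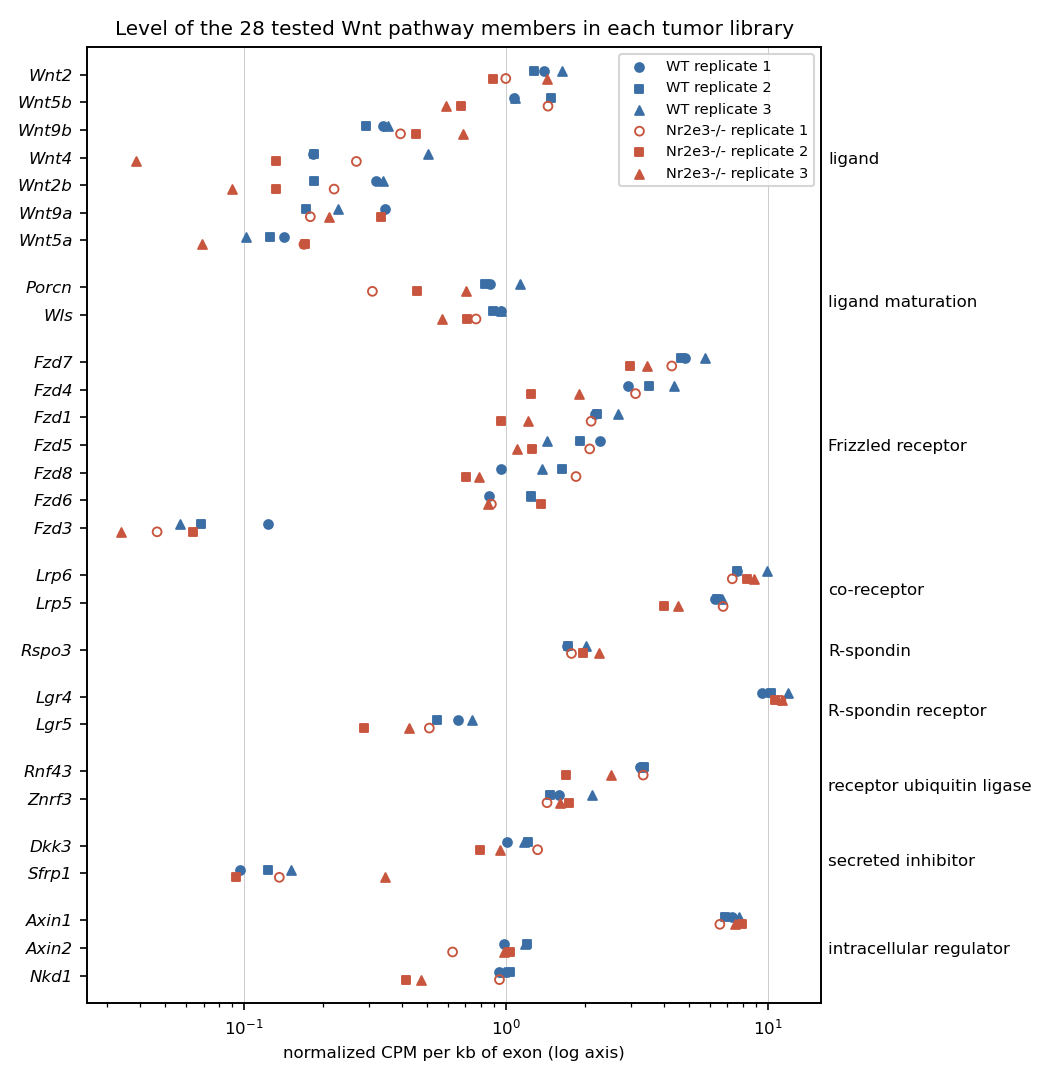
Level of each of the 28 tested members in each library, as normalized CPM per kb of exon on a log axis, grouped by role, with WT in blue and Nr2e3-/- in red (open circles: Nr2e3-/- replicate 1). Lgr4, Lrp6, Axin1, Lrp5 and Fzd7 lie at the upper end and Fzd3 at the lower end, and for Wls, Porcn, Fzd7, Fzd1 and Lgr5 the red marks all lie left of the blue ones.

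The Frizzleds, the receptors that bind Wnt at the cell surface, had the most members at an unadjusted p under 0.05. These were 3 of 7 tested, all lower (42.9%), beside 9.72% of all tested genes called lower. All 7 had a log2 fold change below 0, as did 49.2% of all tested genes. Per kb of exon, Fzd7 was the most abundant in WT tumors at 5.09 ± 0.602 CPM per kb (SD, n = 3), followed by Fzd4 at 3.60 ± 0.738, Fzd1 at 2.37 ± 0.277, Fzd5 at 1.88 ± 0.423, Fzd8 at 1.32 ± 0.345, Fzd6 at 1.12 ± 0.223 and Fzd3 at 0.0828 ± 0.0352. Neighbours in this order whose ranges of mean ± SD overlapped were Fzd1 and Fzd5, Fzd5 and Fzd8, and Fzd8 and Fzd6. The summed Frizzled level per kb was 14.2, 15.3 and 17.0 in WT replicates 1 to 3, and 14.5, 8.66 and 9.41 in Nr2e3-/- replicates 1 to 3. Replicates 2 and 3 of the Nr2e3-/- group therefore lay well below all WT libraries, and replicate 1 lay among them. In bulk tissue, fewer cells of a type and less RNA per cell cannot be told apart.

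Fzd7, at chr1:59482424-59486955 (GRCm38, + strand), measured 21.8, 21.1 and 26.2 CPM in WT replicates 1 to 3 and 19.5, 13.4 and 15.6 CPM in the Nr2e3-/- ones. The groups did not overlap, and the closest approach was Nr2e3-/- replicate 1 at 19.5 CPM beside WT replicate 2 at 21.1 CPM. By edgeR the log2 fold change was -0.52 (SE 0.17, 95% interval -0.91 to -0.12, adjusted p = 0.161).

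Fzd4, a receptor for canonical Wnts that also binds norrin in endothelium (chr7:89404355-89413134), measured 19.6, 23.6 and 29.4 CPM in WT and 21, 8.39 and 12.8 CPM in Nr2e3-/- tumors. Nr2e3-/- replicate 1 exceeded the lowest WT library, whereas replicates 2 and 3 lay below all of them. The log2 fold change was -0.79 (SE 0.33, 95% interval -1.56 to -0.03), with an adjusted p of 0.220 by edgeR.

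Fzd1, at chr5:4753839-4758035, showed the same arrangement of libraries, with 9.22, 9.30 and 11.3 CPM in WT and 8.87, 4.01 and 5.08 CPM in Nr2e3-/- tumors. Here replicate 1 lay just under the lowest WT library, so the groups did not overlap. The log2 fold change was -0.74 (SE 0.29, 95% interval -1.43 to -0.05; edgeR adjusted p = 0.207). Of the other Frizzleds, Fzd5, Fzd8, Fzd6 and Fzd3 overlapped between the groups, with log2 fold changes of -0.35, -0.27, -0.11 and -0.75. Without Nr2e3-/- replicate 1, edgeR gave adjusted p-values of 0.0219 for Fzd7, 0.0191 for Fzd4 and 0.0106 for Fzd1. Of the 6 fits that each left out 1 library, Fzd7 kept an unadjusted p under 0.05 in 4 (lost without WT replicate 3 or Nr2e3-/- replicate 3), Fzd4 in 2 (kept without WT replicate 1 or Nr2e3-/- replicate 1) and Fzd1 in 1 (without Nr2e3-/- replicate 1). Without WT replicate 3, none of the 3 kept it, with edgeR adjusted p-values of 0.417 for Fzd7, 0.485 for Fzd4 and 0.46 for Fzd1.

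The summed level of hepatic stellate cell markers, like the summed Frizzled level, was lowest in Nr2e3-/- replicates 2 and 3, though single markers went both ways. Of these 8 markers, 5 had a log2 fold change below 0 and 3 above. In 1 of them every Nr2e3-/- library lay above every WT library, as in 13.9% of all tested genes. Their sum over 8 markers was 371, 324 and 363 CPM in WT and 344, 225 and 216 CPM in Nr2e3-/- tumors, so that Nr2e3-/- replicate 1 lay among the WT libraries and replicates 2 and 3 below them, though 0 of the 8 had an unadjusted p under 0.05 by edgeR. The 5 mesothelial markers summed to 6.22, 3.42 and 4.30 CPM in WT and 6.02, 1.60 and 1.35 CPM in Nr2e3-/- tumors. Myofibroblast markers summed to 89.4 to 121 CPM in WT and to 118, 78.2 and 49.9 CPM in Nr2e3-/- tumors. Of these 5 markers, 3 had a log2 fold change below 0 and 2 above. By edgeR 1 was higher at an unadjusted p under 0.05 (20%, beside 21.5% of all tested genes in either direction). The 8 endothelial markers summed to 401 to 415 CPM in WT and 335 to 405 CPM in Nr2e3-/- tumors. By edgeR, Kdr and Fcgr2b were lower and Lyve1 higher at an unadjusted p under 0.05 (37.5%, beside 21.5% of all tested genes). Their part in the Frizzled levels was not tested.

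The upstream sequences of the 3 Frizzleds lower at unadjusted p under 0.05 are shown because the study examined Sp1, a zinc-finger factor of GC-rich promoters, and those of Axin2 and Nkd1 because both are known targets of β-catenin with TCF/LEF factors. Each run holds the 250 bases before the gene's RefSeq start (GRCm38.p6), 5′ to 3′ on the gene's strand, with matches to the Sp1 letters GGGCGG on either strand in capitals (CCGCCC where the match is on the other strand). The Frizzled windows were picked after their levels were seen. The windows are chr1:59481897-59482146 (+) for Fzd7, chr7:89404116-89404365 (+) for Fzd4, chr5:4758217-4758466 (-) for Fzd1, chr11:108920099-108920348 (+) for Axin2 and chr8:88527383-88527632 (+) for Nkd1. These starts differ from the GENCODE starts of the gene coordinates given here: the RefSeq start lies 6279 bases inside the gene for Nkd1 and 11 for Fzd4, and 277 and 181 bases before it for Fzd7 and Fzd1.
Fzd7: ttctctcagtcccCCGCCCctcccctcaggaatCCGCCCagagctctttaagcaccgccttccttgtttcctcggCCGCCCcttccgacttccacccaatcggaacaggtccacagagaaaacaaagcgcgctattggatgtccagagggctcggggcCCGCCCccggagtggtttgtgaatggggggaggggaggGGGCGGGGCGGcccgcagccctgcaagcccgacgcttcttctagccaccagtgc
Fzd4: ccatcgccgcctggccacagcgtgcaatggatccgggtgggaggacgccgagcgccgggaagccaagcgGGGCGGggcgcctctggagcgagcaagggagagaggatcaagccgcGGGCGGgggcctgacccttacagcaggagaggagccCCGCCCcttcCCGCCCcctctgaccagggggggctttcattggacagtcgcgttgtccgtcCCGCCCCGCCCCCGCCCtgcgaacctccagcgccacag
Fzd1: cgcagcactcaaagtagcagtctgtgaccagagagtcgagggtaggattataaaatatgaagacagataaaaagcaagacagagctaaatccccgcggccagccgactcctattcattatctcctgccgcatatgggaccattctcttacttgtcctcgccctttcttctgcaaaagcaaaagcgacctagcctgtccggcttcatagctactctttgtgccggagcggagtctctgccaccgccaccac
Axin2: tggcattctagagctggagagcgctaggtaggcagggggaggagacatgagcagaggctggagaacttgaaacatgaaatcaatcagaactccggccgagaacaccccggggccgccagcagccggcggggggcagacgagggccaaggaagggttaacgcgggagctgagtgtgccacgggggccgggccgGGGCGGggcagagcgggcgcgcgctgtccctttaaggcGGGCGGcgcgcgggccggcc
Nkd1: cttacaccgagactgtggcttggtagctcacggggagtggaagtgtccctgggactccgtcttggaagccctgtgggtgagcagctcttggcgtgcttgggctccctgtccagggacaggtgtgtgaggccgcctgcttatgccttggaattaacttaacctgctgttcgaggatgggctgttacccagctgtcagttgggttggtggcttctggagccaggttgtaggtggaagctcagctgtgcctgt

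GGGCGG occurred 6 times in the Fzd7 window, 7 times in that of Fzd4, 2 times in that of Axin2 and 0 times in those of Fzd1 and Nkd1, with neighbouring matches sharing a base in Fzd7 and Fzd4. A count of 0 covers these windows only, and that of Nkd1 is not the window before its GENCODE start. Windows were used for 15 of the 28 tested members, 18 windows in all, with more than 1 for Wnt5b and for Rnf43. Of the 18, 12 held GGGCGG (66.7%), beside 32.7% of 32851 windows of the same length. The 32851 windows were not limited to genes that passed the filter. The shares therefore come from unlike sets, and enrichment was not tested. The TCF/LEF letters CTTTGAT and CTTTGAA, searched on both strands, were found in none of the 5 windows printed, and among the 15 members only Wnt5b held a match (CTTTGAT, bases -71 to -65 from the start). CTTTGAT occurred in 3.21% of all windows, CTTTGAA in 4.46%, and either in 7.48%. A match is a description of letters and says nothing of binding in these tumors.

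Among the co-receptors, Lrp6 (8.40 ± 1.30 CPM per kb in WT, SD, n = 3) and Lrp5 (6.45 ± 0.206) had overlapping groups. Lrp5 measured 61.1, 62.4 and 65.0 CPM in WT and 65.7, 39.2 and 44.2 CPM in Nr2e3-/- tumors, with replicate 1 above all WT libraries and the other two below them. Its log2 fold change was -0.34 (SE 0.19, edgeR adjusted p = 0.336), and -0.58 without Nr2e3-/- replicate 1, where edgeR gave an adjusted p of 0.0113. Of the 6 fits that each left out 1 library, only that one gave Lrp5 an unadjusted p under 0.05. Without WT replicate 3, its edgeR adjusted p was 0.569. Lrp6 was measured at 105, 105 and 135 CPM in WT and 100, 114 and 121 CPM in Nr2e3-/- libraries, a log2 fold change of -0.04 with a 95% interval of -0.38 to 0.29.

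Both genes that every Wnt ligand depends on for secretion were lower in all Nr2e3-/- libraries. Porcn (chrX:8193848-8206525) measured 2.61, 2.50 and 3.40 CPM in WT and 0.927, 1.37 and 2.11 CPM in Nr2e3-/- tumors. Unlike the Frizzleds, Porcn was lowest in Nr2e3-/- replicate 1, and the Nr2e3-/- mean was 52.1% of WT on the fitted scale. The log2 fold change was -0.94 (SE 0.32, 95% interval -1.70 to -0.18; edgeR adjusted p = 0.172).

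Wls (chr3:159839672-159938664) was the more even of the pair, at 8.45, 7.82 and 8.39 CPM in WT and 6.75, 6.24 and 5.03 CPM in the Nr2e3-/- group. Its log2 fold change was -0.45 (SE 0.16, 95% interval -0.83 to -0.07; edgeR adjusted p = 0.179). Leaving out Nr2e3-/- replicate 1 gave log2 fold changes of -0.71 for Porcn and -0.53 for Wls, with edgeR adjusted p-values of 0.119 and 0.0576. Porcn kept an unadjusted p under 0.05 in 4 of the 6 fits without 1 library (lost without WT replicate 3 or Nr2e3-/- replicate 2) and Wls in 3 (lost without WT replicate 1, WT replicate 3 or Nr2e3-/- replicate 3). Without WT replicate 3, both lost an unadjusted p under 0.05, with edgeR adjusted p-values of 0.425 for Porcn and 0.421 for Wls.

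The ligands were dominated by Wnt2 and Wnt5b, which supplied 35.4% and 30.0% of the summed ligand level per kb in WT tumors. This sum was 3.93, 3.84 and 4.38 CPM per kb in WT and 3.74, 2.84 and 3.15 in Nr2e3-/- tumors, lower in every Nr2e3-/- library, and it was not tested. None of the 7 tested ligands had an unadjusted p under 0.05 by edgeR or DESeq2, whereas limma-voom gave 4 (Wnt9b higher, and Wnt5b, Wnt4 and Wnt2b lower), where it called 36.7% of all tested genes.

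Wnt9b (chr11:103727364-103749821) had the highest log2 fold change of the tested ligands, with 1.54, 1.32 and 1.60 CPM in WT and 1.79, 2.04 and 3.08 CPM in Nr2e3-/- tumors. All Nr2e3-/- libraries lay above all WT ones, and the highest was replicate 3. The log2 fold change was 0.63 (SE 0.28, 95% interval -0.01 to 1.28; edgeR adjusted p = 0.239). Its share of the summed ligand level per kb was 8.11% in WT and 15.7% in Nr2e3-/- tumors.

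Wnt2, the ligand that shares the central-vein endothelium with Wnt9b, was not higher. It measured 3.15, 2.88 and 3.68 CPM in WT and 2.25, 2.0 and 3.24 CPM in Nr2e3-/- tumors, with overlapping groups and a log2 fold change of -0.37 (SE 0.25, 95% interval -0.96 to 0.21). Wnt5b, mostly known for non-canonical signalling, measured 2.84, 3.96 and 2.88 CPM in WT and 3.84, 1.78 and 1.57 CPM in Nr2e3-/- tumors. Its replicate 1 in the Nr2e3-/- group again lay with the WT libraries, and the log2 fold change was -0.45 with that library and -0.93 without it (edgeR adjusted p = 0.492 with it, adjusted p = 0.0425 without it). Wnt5b had an unadjusted p under 0.05 in only that 1 of the 6 fits without 1 library. Without WT replicate 3 the edgeR adjusted p was 0.617.

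The remaining tested ligands were low, at or under 2.12 CPM in every library. Wnt4 and Wnt2b had log2 fold changes of -1.03 and -0.95 and overlapping groups, with edgeR adjusted p-values of 0.400 and 0.240. In Wnt4 the WT group itself was uneven, with 0.768 and 0.778 CPM in replicates 1 and 2 and 2.12 CPM in replicate 3. Wnt5a and Wnt9a had log2 fold changes of 0.15 and -0.01, with 95% intervals of -0.75 to 1.06 and -0.95 to 0.94, too wide to show that they were alike. Below the filter, Wnt16 had 4, 1 and 3 counts in the WT libraries and 0 in the Nr2e3-/- ones. Wnt8b had 2, 2 and 1 counts in WT against 0. Both were within or near the limit that a count of 0 allows. With no filter, edgeR gave Wnt16 an unadjusted p of 0.0337 (adjusted p = 0.248), and DESeq2 gave it an unadjusted p of 0.128. That edgeR fit gave 3224 of 18815 genes an unadjusted p under 0.05.

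**Figure D2:**
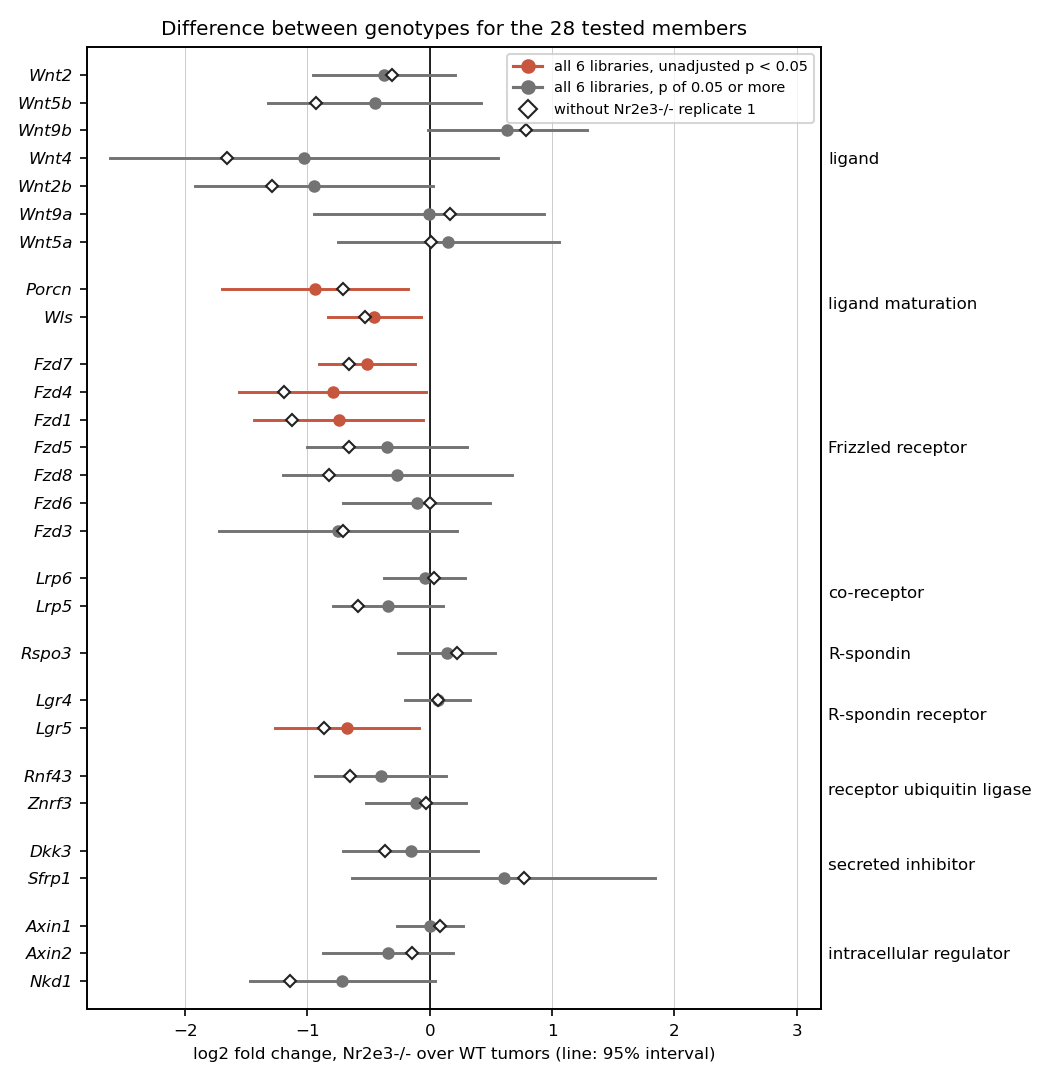
Log2 fold change of Nr2e3-/- over WT tumors for the 28 tested members, with 95% intervals from edgeR (red: unadjusted p under 0.05) and the value without Nr2e3-/- replicate 1 as open diamonds. The 6 red members lie below 0, Wnt9b and Sfrp1 lie highest, and the diamonds of Fzd4, Fzd1, Lrp5, Nkd1 and Wnt5b lie further from 0 than their circles.

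The R-spondin axis had 1 ligand above the filter, Rspo3, the R-spondin of liver endothelium and stellate cells. Rspo3 measured 5.30, 5.35 and 6.24 CPM in WT and 5.49, 6.09 and 6.98 CPM in Nr2e3-/- tumors, with overlapping groups and a log2 fold change of 0.14 (95% interval -0.26 to 0.53). Rspo1 had 10, 6 and 5 counts in WT and 8, 1 and 0 counts in Nr2e3-/- tumors, under the filter. Of the receptors, Lgr4 was far more abundant than Lgr5, at 10.6 ± 1.23 against 0.646 ± 0.0983 CPM per kb in WT tumors (SD, n = 3).

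Lgr5 (chr10:115450311-115587780), both a receptor and a known β-catenin target, was the only member of this axis at an unadjusted p under 0.05. It measured 6.72, 5.58 and 7.59 CPM in WT and 5.23, 2.93 and 4.38 CPM in Nr2e3-/- tumors, without overlap. The log2 fold change was -0.68 (SE 0.25, 95% interval -1.26 to -0.09; edgeR adjusted p = 0.187), and -0.86 without Nr2e3-/- replicate 1, with an adjusted p of 0.0476. Lgr5 kept an unadjusted p under 0.05 in 2 of the 6 fits without 1 library, those without WT replicate 2 or Nr2e3-/- replicate 1. Without WT replicate 3 it had an edgeR adjusted p of 0.444. Lgr4 measured 55.8, 60.6 and 70.1 CPM in WT and 65.9, 62.6 and 66.7 CPM in Nr2e3-/- libraries, a log2 fold change of 0.07 with a 95% interval of -0.20 to 0.33.

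The 2 ubiquitin ligases that R-spondins restrain had log2 fold changes below 0 and overlapping groups. Rnf43 was nearly constant in WT tumors, at 21.4, 22.0 and 21.7 CPM, and varied in Nr2e3-/- tumors, at 21.9, 11.1 and 16.4 CPM. Its log2 fold change was -0.40 (SE 0.23, edgeR adjusted p = 0.341), and without Nr2e3-/- replicate 1 it was -0.65 with an adjusted p of 0.0404. Rnf43 had an unadjusted p under 0.05 in only that 1 of the 6 fits without 1 library. Without WT replicate 3 the edgeR adjusted p was 0.550. Znrf3 measured 12.6, 11.6 and 16.8 CPM in WT and 11.3, 13.8 and 12.7 CPM in the Nr2e3-/- group, a log2 fold change of -0.11 with a 95% interval of -0.52 to 0.30.

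The intracellular negative regulators differed among themselves. Axin1, the constitutive scaffold, measured 28.0, 26.4 and 29.8 CPM in WT and 25.1, 30.4 and 28.6 CPM in Nr2e3-/- tumors, and the 95% interval of its log2 fold change was -0.27 to 0.27. Axin2, the scaffold that β-catenin induces (chr11:108920349-108950783), measured 5.41, 6.60 and 6.52 CPM in WT and 3.44, 5.68 and 5.41 CPM in Nr2e3-/- tumors. Its lowest library was Nr2e3-/- replicate 1, and the log2 fold change was -0.34 (SE 0.22, 95% interval -0.87 to 0.19; edgeR adjusted p = 0.401).

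Nkd1, an inhibitor of Dishevelled that is also induced by the pathway (chr8:88521354-88594884), measured 4.30, 4.74 and 4.47 CPM in WT and 4.30, 1.89 and 2.16 CPM in Nr2e3-/- tumors. Replicates 2 and 3 lay below all WT libraries and replicate 1 lay beside the lowest of them. The log2 fold change was -0.71 (SE 0.32, 95% interval -1.47 to 0.04), with an adjusted p of 0.251 by edgeR, and -1.15 with an adjusted p of 0.0110 without replicate 1. Nkd1 had an unadjusted p under 0.05 in only that 1 of the 6 fits without 1 library. Without WT replicate 3 the edgeR adjusted p was 0.465. Axin2 and Nkd1 thus had different lowest libraries.

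Of the secreted inhibitors, 7 of 9 were under the filter. Dkk3, a divergent Dickkopf, and Sfrp1, a decoy that resembles the Frizzled ligand-binding domain, were tested, with log2 fold changes of -0.16 and 0.60 and overlapping groups. Sfrp1 stood at 0.422 to 0.659 CPM in WT and at 0.596, 0.408 and 1.51 CPM in Nr2e3-/- tumors, and its value above 0 rested on replicate 3, since it was -0.14 without that library.

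Dkk4, which blocks Lrp5 and Lrp6 and is itself a known β-catenin target, had 4, 3 and 7 counts in WT and 20, 6 and 13 counts in Nr2e3-/- tumors. The groups overlapped by a single count, the lowest Nr2e3-/- library having 6 counts and the highest WT library 7. Wif1, which binds Wnt ligands outside the cell, had 0, 0 and 1 counts in WT and 2, 4 and 4 counts in Nr2e3-/- tumors, at or near the limit that a count of 0 allows. DESeq2, which tests genes below edgeR's filter too, called both higher at an unadjusted p under 0.05, where 9.30% of its tested genes were called higher. It gave Dkk4 a log2 fold change of 2.16 with an adjusted p of 0.0968, and gave Wif1 no adjusted p.

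The members' results depended on Nr2e3-/- replicate 1, as did those of the whole table. Over all genes, edgeR called 3022 after adjustment without it and 13 with it. Both other Nr2e3-/- libraries lay below the lowest WT library in 15 of the 28 tested members (53.6%), beside 27.5% of all tested genes, and in 5 of the 7 Frizzleds. All 15 were among the 22 members with a log2 fold change below 0 (68.2%), beside 55.0% of all tested genes with a log2 fold change below 0. These 22 members had replicate 1 as the highest Nr2e3-/- library in 14 cases (63.6%), beside 57.1% of all tested genes with a log2 fold change below 0. Without replicate 1, edgeR gave 13 of the 28 members lower at an unadjusted p under 0.05 and 1 higher, Wnt9b. In that fit 17.8% of all tested genes were called lower at the same threshold. After adjustment it called 8 members, all lower (28.6% of the members, beside 9.65% of all tested genes called lower): Wnt5b, Fzd7, Fzd4, Fzd1, Lrp5, Lgr5, Rnf43 and Nkd1. With all 6 libraries and quality weights that let each library count by its own spread, limma-voom called 6 members after adjustment, Wls, Fzd7, Fzd4, Fzd1, Lrp5 and Nkd1, all lower (21.4% of the members, beside 7.91% of all tested genes called lower). Leaving out any other library gave edgeR 0 members after adjustment. The number lower at an unadjusted p under 0.05 was then 3 without WT replicate 1, 5 without WT replicate 2, 0 without WT replicate 3 and 2 without Nr2e3-/- replicate 2 or 3. Over all genes, in either direction, these fits in turn called 2151 of 13814, 1780 of 13687, 1785 of 13692, 2608 of 13727 and 1693 of 13854.

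**Figure D3:**
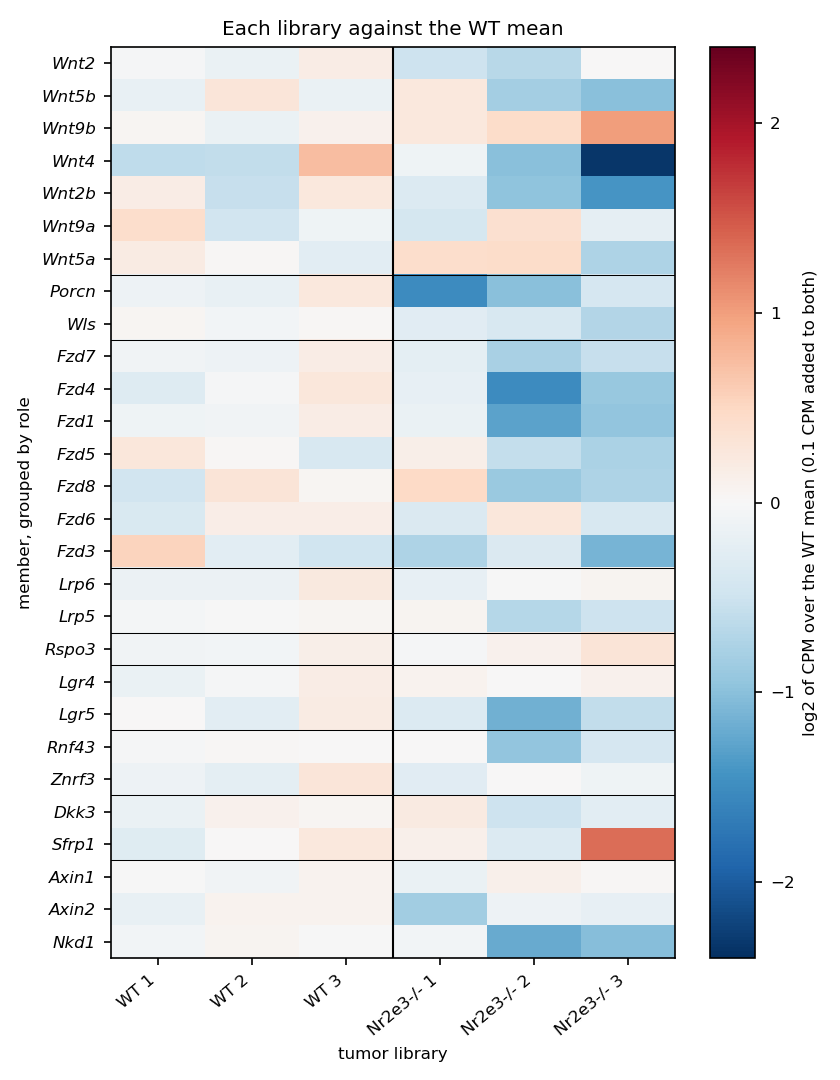
Log2 of each library's CPM over the WT mean for the 28 tested members, with 0.1 CPM added to both (blue: below the WT mean, red: above). Among the Frizzleds, Fzd7, Fzd4, Fzd1, Fzd5 and Fzd8 are blue in Nr2e3-/- replicates 2 and 3 and pale or red in replicate 1, as are Lrp5, Rnf43 and Nkd1, whereas Porcn and Axin2 are darkest in replicate 1.

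The intracellular part of the pathway, as a list of 34 genes of which 31 passed the filter, was split in direction, with 15 log2 fold changes above 0 and 16 below and a median of -0.02. By edgeR, 3 were higher at an unadjusted p under 0.05 and 5 lower (25.8% in all, beside 21.5% of all tested genes), and 0 of the 31 passed adjustment. DESeq2 called 1 after adjustment, Btrc (adjusted p = 0.0408), beside 7.93% of the genes it adjusted. Btrc and Fbxw11, paralogous F-box proteins that mark β-catenin for degradation, went opposite ways, with log2 fold changes of -0.72 and 0.67. Csnk1d, a casein kinase, and Sp1 were higher by 0.40 and 0.33 on the log2 scale. The other 4 that were lower were the Dishevelled genes Dvl1 (-0.25) and Dvl2 (-0.60), which relay the signal from Frizzleds, the transcription factor Tcf7l2 (-0.45) and the β-catenin inhibitor Ctnnbip1 (-0.57). The largest differences of the list, Bcl9l at -0.99 and Tle2 at -0.76, did not reach an unadjusted p of 0.05. Ctnnb1, which encodes β-catenin, measured 317, 286 and 277 CPM in WT and 311, 316 and 326 CPM in Nr2e3-/- libraries, a log2 fold change of 0.11 with a 95% interval of -0.13 to 0.36.

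Among 28 further surface and secreted Wnt genes, 19 passed the filter, with a median log2 fold change of -0.33. Of these, edgeR gave 4 lower and 0 higher at an unadjusted p under 0.05 (21.1% in all). Of all tested genes, 21.5% were called in either direction and 9.72% lower. After adjustment, 0 of the list passed by edgeR or DESeq2. The 4 were the co-receptor Ptk7 (-1.72), Lrp4 (-0.60), the Dickkopf receptor Kremen1 (-0.53) and the planar polarity gene Prickle1 (-0.42). Celsr1 and Reck followed in size at -0.98 and -0.79, each with an unadjusted p above 0.05.

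A list of liver Wnt target genes did not lean to a side, with 9 of 18 log2 fold changes above 0 and 9 below and a median of -0.02. It shares Tcf7 with the intracellular list and Notum with the further surface and secreted genes. It leaves out the β-catenin targets counted as members. Of those, Axin2 (-0.34), Lgr5 (-0.68), Nkd1 (-0.71), Rnf43 (-0.40) and Znrf3 (-0.11) were below 0 by edgeR. Dkk4, under the filter, was above 0 by DESeq2 (2.16). By edgeR, Rhbg was higher at an unadjusted p under 0.05 (0.78), and Tnfrsf19 (-1.45), Slc1a4 (-0.76) and Slc1a2 (-0.42) were lower. That is 22.2% in all, beside 21.5% of all tested genes. After adjustment edgeR called 0 of the list and DESeq2 called 1, Tnfrsf19, beside 7.93% of the genes DESeq2 adjusted. Glul, the glutamine synthetase of pericentral hepatocytes, measured 630, 740 and 728 CPM in WT and 641, 822 and 895 CPM in Nr2e3-/- tumors, with a log2 fold change of 0.17. The opposing periportal list had a median of 0.20. By edgeR, Sds (0.98), Cyp2f2 (0.68) and Sdsl (0.56) were higher at an unadjusted p under 0.05 and 0 of 12 lower. That is 25% in all, beside 21.5% of all tested genes called in either direction. After adjustment edgeR called 0 of them and DESeq2 called 2 (Sds and Sdsl), beside 7.93% of the genes DESeq2 adjusted.

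**Figure D4:**
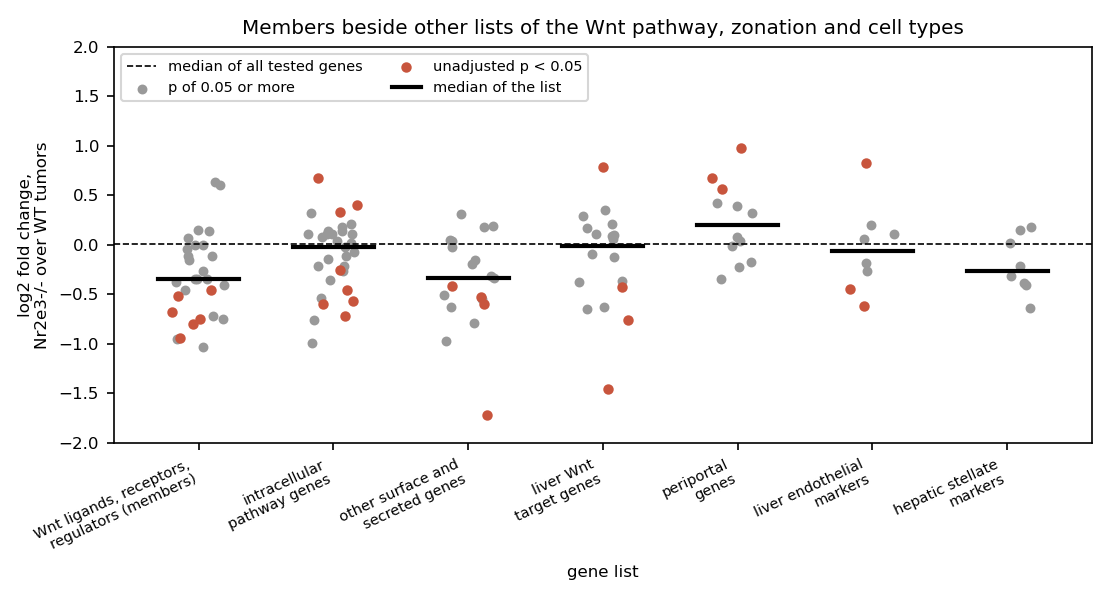
Log2 fold change of Nr2e3-/- over WT tumors for the tested genes of the members and of 6 other lists, with each list's median as a bar and that of all tested genes as a dashed line (red: unadjusted p under 0.05). The members and the other surface and secreted genes have medians of -0.35 and -0.33, the intracellular and target lists lie at -0.02, and the periportal list lies at 0.20.

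Markers of other cells differed between libraries as well. The 6 bile duct markers summed to 57.3 to 119 CPM in WT and to 69.1, 429 and 185 CPM in Nr2e3-/- tumors, and the 6 Kupffer cell markers to 241 to 310 CPM in WT and 211, 568 and 287 CPM in Nr2e3-/- tumors. The 4 neutrophil markers in the table summed to at most 2.67 CPM in WT and to 2.05, 18.8 and 11.5 CPM in Nr2e3-/- tumors, and the 6 lymphocyte markers to 2.38 to 6.29 CPM in WT and 1.24 to 3.71 CPM in Nr2e3-/- tumors. Of the 5 bile duct markers that passed the filter, 3 had a log2 fold change above 0 and 2 below, and 0 had groups without overlap. Nr2e3-/- replicates 2 and 3, in which the summed Frizzled level was lowest, were thus also those with the higher bile duct and neutrophil sums. The part of these cells in the members' values was not tested. Among the tested members, Wnt5b (with Fbxl14), Wnt5a, Wnt2b, Wls, Fzd5, Fzd6, Fzd3, Rspo3, Lgr5, Rnf43, Axin1, Axin2 and Nkd1 overlap other annotated genes, and since the sources used here do not say that counting used strand, reads of the overlapping pairs could not be told apart.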

How the data were processed

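RNA was sequenced from 3 WT and 3 Nr2e3-/- liver tumor libraries, grouped by the genotype in their titles. The authors aligned single-end TruSeq reads to mm10 with TopHat and counted them per gene with featureCounts, and the deposited values used here are raw counts (15376261 to 28690279 per library). Whether counting used strand is not given in the sources used here. Tables of the authors' normalized values and of their DESeq2 fold changes and p-values were not used. The library columns name the knockout tumors by a 2-letter code that was read as KO tumor.

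Counts were filtered with filterByExpr (minimum count 10, minimum total 15), normalized by TMM and tested with edgeR 4.0.16 (quasi-likelihood F test, two-sided, Benjamini-Hochberg over all genes) in R 4.3.3. CPM are TMM-normalized, and levels per kb divide them by the union exon length of GENCODE M21 (GRCm38). DESeq2 1.42.0 and limma 3.58.1 were alternatives, and the edgeR step was tested on simulated data. Members named with every library's value had an unadjusted p under 0.05 or groups that did not overlap, were known β-catenin targets, central-vein ligands or maturation genes, or had the highest level of their role; further values were added after they were seen. Genes of other lists were named at an unadjusted p under 0.05 or among the 3 largest differences. Members and lists were chosen with earlier results of these data known. Older symbols were matched through RefSeq synonyms, and promoter windows came from RefSeq (GRCm38.p6).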

Additional observations from a re-analysis of the deposited data

How the results depend on the processing

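The count of members lower at an unadjusted p under 0.05, 6 as reported, was within 1.5 times of that under relative log expression scaling, upper-quartile scaling, DESeq2, no filter, a filter of 10 counts in every library and the replicate block. With limma-voom quality weights it was 13, with 6 members after adjustment, a median log2 fold change of -0.475 over the members, and 13 intracellular and 7 other surface and secreted genes at an unadjusted p under 0.05. At that threshold limma-voom called 36.7% of all tested genes, beside 21.5% by edgeR with all 6 libraries. Members higher at that threshold, 0 as reported, numbered 2 with DESeq2, 2 with no filter, 1 with limma-voom and 1 with 10 counts in every library. Leaving out 1 library at a time gave 0 to 13 members lower, 0 to 1 higher, 0 to 8 after adjustment and a median of -0.557 to -0.242. It also gave 3 to 15 intracellular genes, 1 to 9 other surface and secreted genes, 2 to 6 liver Wnt targets and 2 to 5 periportal genes. The number of all genes at an unadjusted p under 0.05 moved as well. It ran from 1693 of 13854 without Nr2e3-/- replicate 3 to 5220 of 13840 without Nr2e3-/- replicate 1. The counts of 13 and 8 came without Nr2e3-/- replicate 1, the count of 0 lower without WT replicate 3, and the median of -0.242 without Nr2e3-/- replicate 3; the cause was not tested.

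Members near 0 crossed it: limma-voom gave Wnt5a -0.34 and Lrp6 0.052, upper-quartile scaling, which moved the median of all genes to -0.08, gave Lgr4 -0.019 and Axin1 -0.088, and 10 counts in every library gave Axin1 -0.017. Leave-one-out ranges spanning 0 were -0.071 to 0.47 for Wnt5a, -0.34 to 0.29 for Wnt9a, -0.37 to 0.017 for Fzd6, -0.11 to 0.089 for Lrp6, -0.0032 to 0.16 for Lgr4, -0.22 to 0.060 for Znrf3, -0.37 to 0.0021 for Dkk3, -0.14 to 0.98 for Sfrp1 and -0.060 to 0.082 for Axin1.

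The groups share replicate numbers, but deviations of same-numbered libraries correlated at -0.0766, 0.221 and 0.0234, so the numbers were not taken as pairs. With the replicate block, 5 members were lower at an unadjusted p under 0.05 and 0 higher, with 0 after adjustment, a median of -0.374, and 10 intracellular, 3 other surface and secreted, 3 target and 3 periportal genes at that threshold. Over the whole table the block gave 2438 of 13572 genes an unadjusted p under 0.05. Wls was the member lost, Wnt9a was 0.0087 and Axin1 was -0.0025, and 0 genes of the whole table passed adjustment. WT replicate 3 correlated best with Nr2e3-/- replicate 1. Depth limits the 26 members under the filter, and 3 libraries a group limit every interval.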
